A study of Mus musculus with 6 samples.

Results

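Transcript levels of 9 genes of the AKT and FoxO pathway were examined in mouse embryos, in the region of the aorta, gonad and mesonephros (AGM) where the first blood stem cells form. The genes are the kinases Akt1 and Akt2, the transcription factors Foxo1, Foxo3 and Foxo4, and 4 genes known as FoxO targets, Sod2, Igfbp1, Cdkn1a and Cdkn1b. They were taken by symbol from a table of 23446 rows with gene symbols, and all 9 had a row. RNA sequencing compared C57BL/6 embryos at E11.5 that were tph2-/-, tph2+/- or tph2+/+, with 2 libraries of each genotype and no treatment named. Tph2 encodes the tryptophan hydroxylase that starts serotonin (5-hydroxytryptamine) synthesis in neurons, and the sources used here do not say how its alleles were disrupted. Nor do they say whether a library is 1 embryo or several and which libraries are littermates. The series title names serotonin produced in the AGM and how blood stem and progenitor cells survive.

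AKT kinases are switched on by phosphorylation when growth factor receptors activate phosphoinositide 3-kinase (PI3K). Active AKT phosphorylates FoxO factors, which then leave the nucleus and are held in the cytoplasm by 14-3-3 proteins. When AKT is quiet, FoxO factors enter the nucleus and turn on genes of antioxidant defence, cell cycle arrest, metabolism and cell death. FoxO factors are known to protect blood stem cells of adult mice from oxidative stress. Control of AKT and FoxO activity by phosphorylation is not read by transcript levels, whereas the level of FoxO target transcripts is a downstream readout that other regulators share.

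The values are RPKM, reads divided by gene model length and by library depth, so levels of different genes can be set side by side per length. The steps between low values gave an estimated 38800000 and 39200000 reads behind the tph2-/- columns, 40400000 and 40800000 behind tph2+/-, and 46000000 and 44800000 behind tph2+/+. These totals rest on annotated lengths of 572 genes with a single transcript, of which 334 gave a total within 2% of the commonest one. The ratios between libraries do not use gene length. The lengths implied for the 9 genes were shorter than all their annotated exons together, such as 3824 against 10008 bases for Sod2 and 2889 against 7571 for Foxo3. Tph2 itself rested on 3 to 9 reads in a library (0.0280 to 0.0764 RPKM), too few to check the genotype labels. Markers of the AGM were present, with Cdh5 of endothelium at 25.3 to 29.7 RPKM and Wt1 of coelomic epithelium at 13.0 to 23.1, and Runx1 of emerging blood was low at 1.14 to 1.86. Xist, the RNA of the inactive X chromosome, stood at 0.0590 to 0.114 RPKM in both tph2-/- libraries and tph2+/- replicate 2 and at 76.3 to 101 in the other 3. The libraries low in Xist carried Y-linked Ddx3y at 8.14 to 9.82. Sex and genotype therefore cannot be told apart in tph2-/- against tph2+/+, while the tph2+/- pair held 1 library of each pattern. Genes of the other marker lists were called against tph2+/+ by the limma test described below. Blood genes were higher for 8 of 9 tested in tph2-/- and 7 in tph2+/-, beside 5.84% and 4.13% of all genes. Neural genes were higher for 6 and 3 of 7, and macrophage genes for 2 and 0 of 8. Mesonephros and gonad genes were lower for 3 and 4 of 6, beside 3.81% and 1.95% of all genes, and none of 9 endothelial markers passed.

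The promoters of the 3 genes that changed are shown first, because transcription factors of the pathway are known to act on such regions. Windows from 250 bases before to 50 after a transcription start were read for 8 of the 9 genes from RefSeq, build GRCm38.p6, each from 5′ to 3′ on the strand of the gene. The Igfbp1 window (chr11:7197537-7197836, plus strand) holds the insulin response element CAAAACAA through which FoxO1 is known to act, in capitals. The upstream Cdkn1a window (chr17:29090729-29091028, plus strand) holds a pair of p53 half-site cores, ACATGT and ACATGT again after 4 other bases, which are in capitals with the bases between them. The Sod2 window (chr17:13007589-13007888, plus strand) held none of the motifs searched and is in lower case throughout.
Igfbp1: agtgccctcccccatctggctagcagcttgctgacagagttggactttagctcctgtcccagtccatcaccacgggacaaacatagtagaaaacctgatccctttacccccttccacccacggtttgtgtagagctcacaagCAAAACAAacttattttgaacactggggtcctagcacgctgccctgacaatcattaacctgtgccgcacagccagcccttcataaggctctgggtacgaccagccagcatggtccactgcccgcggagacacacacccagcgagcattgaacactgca
Cdkn1a: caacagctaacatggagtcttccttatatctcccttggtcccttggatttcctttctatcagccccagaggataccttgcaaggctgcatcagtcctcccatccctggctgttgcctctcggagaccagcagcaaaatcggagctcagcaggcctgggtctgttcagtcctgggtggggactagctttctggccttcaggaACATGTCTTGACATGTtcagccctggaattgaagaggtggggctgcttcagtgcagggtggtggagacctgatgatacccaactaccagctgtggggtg
Sod2: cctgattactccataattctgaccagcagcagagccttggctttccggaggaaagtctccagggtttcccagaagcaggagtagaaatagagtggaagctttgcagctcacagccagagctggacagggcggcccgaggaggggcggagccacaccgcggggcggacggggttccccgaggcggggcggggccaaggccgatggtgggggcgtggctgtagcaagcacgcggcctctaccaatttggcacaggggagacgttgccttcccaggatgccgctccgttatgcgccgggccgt

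In all, 13 windows of the 8 genes were searched on both strands for the forkhead core GTAAACA, the longer element GTAAACAA that contains it, the insulin response element CAAAACAA and the p53 pair. Among all 32851 windows of the mouse table, 3.65% held GTAAACA, 1.23% GTAAACAA, 2.51% CAAAACAA and 0.0122% the p53 pair. Of the 9 genes, Igfbp1 held CAAAACAA at -108 from its start, and Akt1 held GTAAACAA on the opposite strand in 1 of its windows (chr12:112674835-112675134, minus strand). The p53 pair of Cdkn1a lay at -49 from the upstream start, and its spacing was set after that window had been read. No motif was found in the windows of Akt2, Foxo1, Foxo3, Sod2 and Cdkn1b, which says only that these letters are not in these windows. A match is a description of sequence and not evidence of binding in this tissue.

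In tph2-/- against tph2+/+, 3 of the 9 genes changed: Sod2 and Igfbp1 rose and Cdkn1a fell. Both AKT kinases, all 3 FoxO factors and Cdkn1b did not pass the test. In tph2+/- against tph2+/+, 2 of the 9 changed, Igfbp1 upwards and Cdkn1a downwards. In tph2-/- against tph2+/- none of the 9 passed by limma, and 1, Foxo4, had an unadjusted p under 0.05. Of all tested genes 13.1% had such an unadjusted p in that comparison. The test was limma on log2(RPKM + 1) in all 6 libraries, with p-values adjusted by the Benjamini-Hochberg method over the 12869 genes that averaged 1 RPKM or more, and a gene was called at an adjusted p under 0.05. All 9 genes passed that filter on low values. Igfbp1, at a mean of 0.261 RPKM in tph2+/+, passed it only through the other genotypes, where it was higher. By the same test 9.64% of all genes were called in tph2-/- against tph2+/+ (5.84% higher, 3.81% lower), 6.08% in tph2+/- against tph2+/+ (4.13% higher, 1.95% lower) and 1.29% in tph2-/- against tph2+/- (0.746% higher, 0.544% lower). The 751 higher and 490 lower genes of the first comparison became 548 higher and 667 lower after quantile normalization and 620 higher and 640 lower after median-of-ratios scaling, and the 531 and 251 of tph2+/- against tph2+/+ became 408 and 370, and 455 and 325. The median log2 difference of the 9 genes was -0.084 in tph2-/- and 0.034 in tph2+/- against tph2+/+, beside medians over all tested genes of 0.030 and 0.024. The libraries of tph2-/- and tph2+/+ did not overlap for 7 of the 9 genes, a pattern that 59.9% of all tested genes shared. The like count was 4 of 9 in tph2+/- against tph2+/+, beside 52.1% of all genes, and 2 of 9 in tph2-/- against tph2+/-, beside 43.1%. The AGM was sequenced as bulk tissue, so fewer cells of a type and less RNA per cell cannot be told apart.

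**Figure D1:**
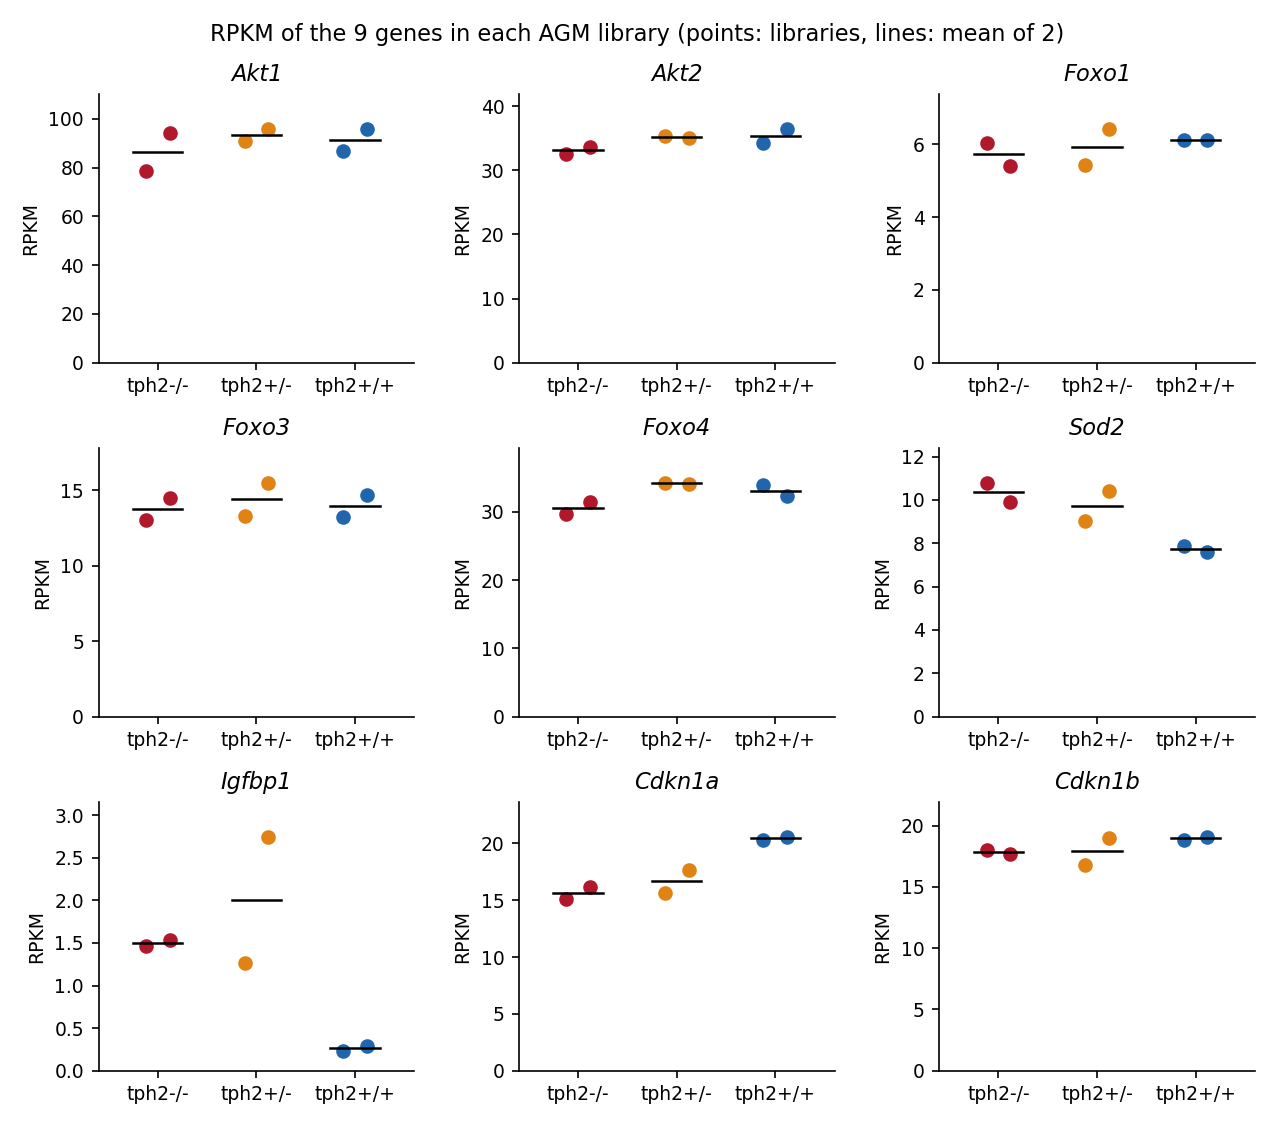
RPKM of each gene (vertical axis, from 0) in the 2 libraries of each genotype, with points for libraries and a line for their mean. Igfbp1 and Sod2 are higher and Cdkn1a is lower in all 4 libraries with a disrupted allele than in both tph2+/+ libraries, while the points of Akt1 and Foxo3 overlap between all genotypes.

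Among the kinases, Akt1, the form expressed in most tissues and linked to cell survival and growth, was the most abundant of the 9 genes per length. Akt1 (chromosome 12, 112653821 to 112674884, minus strand, GRCm38) had 78.7 and 94.0 RPKM in tph2-/- and 90.9 and 96.0 in tph2+/-, against 86.7 and 96.0 in tph2+/+. The genotypes overlapped, and the lowest value of the 6 was tph2-/- replicate 1. The log2 difference was -0.084 ± 0.087 (SE) in tph2-/- against tph2+/+ (95% interval -0.28 to 0.11, limma adjusted p = 0.56) and 0.034 ± 0.087 in tph2+/- against tph2+/+ (-0.16 to 0.23, adjusted p = 0.885). With a term for Y-linked expression (Ddx3y) the tph2-/- difference was -0.143 (adjusted p = 0.682). Within a genotype, Ddx3y differed mainly between the tph2+/- libraries (0.0214 and 8.69 RPKM). The term therefore rests on 1 library of each pattern, and it cannot separate sex from genotype.

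Akt2, best known for insulin signalling in metabolic tissues (chromosome 7, 27591552 to 27640826, plus strand), had 32.6 and 33.6 RPKM in tph2-/- and 35.3 and 35.0 in tph2+/-, against 34.3 and 36.5 in tph2+/+. Both tph2-/- libraries lay under the other 4, by little. The log2 difference was -0.095 ± 0.054 in tph2-/- against tph2+/+, with an interval of -0.22 to 0.028 and a limma adjusted p of 0.292. It was -0.011 ± 0.054 in tph2+/- against tph2+/+ (-0.13 to 0.11, adjusted p = 0.944). Akt1 stood above Akt2 in each of the 6 libraries without overlap of their ranges, at 2.41 to 2.80 times its RPKM.

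Among the FoxO factors, Foxo4 had the highest level per length and Foxo1 the lowest of the 3, in every library. Foxo1, which controls vascular development in the embryo and metabolic genes in liver (chromosome 3, 52268336 to 52353221, plus strand), had 6.03 and 5.41 RPKM in tph2-/- and 5.44 and 6.43 in tph2+/-, against 6.12 and 6.12 in tph2+/+. The tph2+/+ values sat between the extremes of the tph2+/- pair and just above both tph2-/- values. The log2 difference was -0.084 ± 0.086 in tph2-/- (95% interval -0.28 to 0.11, limma adjusted p = 0.557) and -0.041 ± 0.086 in tph2+/- (-0.24 to 0.15, adjusted p = 0.855) against tph2+/+. The Y-linked term moved them to -0.303 in tph2-/- (adjusted p = 0.275) and -0.149 in tph2+/- (0.434), neither past the threshold. The Foxo1 locus overlaps exons of an annotated antisense gene, Gm20402, and with a kit that keeps no strand information the counts may hold both.

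Foxo3, the FoxO factor most tied to the upkeep of blood stem cells in adult mice (chromosome 10, 42181841 to 42276755, minus strand), had 13.0 and 14.5 RPKM in tph2-/- and 13.3 and 15.5 in tph2+/-, against 13.2 and 14.7 in tph2+/+. Within each genotype one library was near 13 and the other was higher, and the genotypes overlapped. Its log2 difference from tph2+/+ was -0.020 ± 0.087 in tph2-/- (-0.22 to 0.18, limma adjusted p = 0.905) and 0.045 ± 0.087 in tph2+/- (-0.15 to 0.24, adjusted p = 0.839). With the Y-linked term it was -0.217 in tph2-/- (adjusted p = 0.468) and -0.0525 in tph2+/- (0.844).

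Foxo4 lies on the X chromosome (X, 101254528 to 101260873, plus strand) and is known from vascular smooth muscle and gut. It had 29.7 and 31.4 RPKM in tph2-/- and 34.3 and 34.1 in tph2+/-, against 33.9 and 32.3 in tph2+/+. Both tph2-/- libraries were the lowest of the 6, and the tph2+/- pair the highest. The log2 difference was -0.11 ± 0.055 in tph2-/- against tph2+/+ (interval -0.24 to 0.015, limma adjusted p = 0.235) and 0.049 ± 0.055 in tph2+/- against tph2+/+ (-0.076 to 0.17, adjusted p = 0.701). Between tph2-/- and tph2+/- it was -0.16 ± 0.055 (-0.28 to -0.035), with an unadjusted p of 0.018 and a limma adjusted p of 0.263. Of the 3 libraries with the Y-linked pattern, tph2+/- replicate 2 stood above the tph2-/- mean, a log2 difference of -0.156 for tph2-/-. Within the Xist-high libraries, tph2+/- replicate 1 was 0.0526 above the tph2+/+ mean. The Y-linked term gave -0.0975 in tph2-/- (limma adjusted p = 0.671) and 0.0557 in tph2+/- (0.763) against tph2+/+. Foxo6, the fourth member of the family, was at 1.17 to 1.69 RPKM and did not pass in tph2-/- (-0.083 ± 0.096, limma adjusted p = 0.61) or tph2+/- (-0.22 ± 0.096, adjusted p = 0.248). Foxo4 was 2.17 to 2.57 times Foxo3, and Foxo3 2.16 to 2.67 times Foxo1, in RPKM of the same library.

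**Figure D2:**
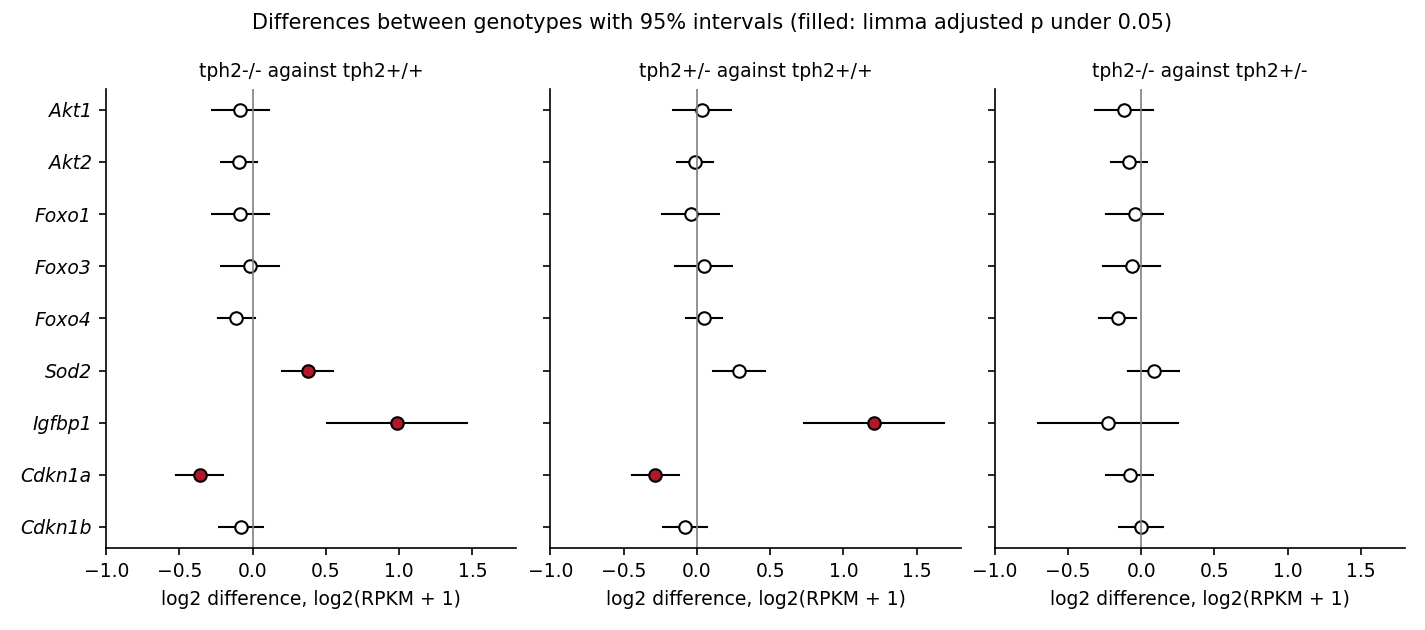
Log2 differences between genotypes on the log2(RPKM + 1) scale (horizontal axis) with 95% intervals for the 9 genes, one panel per comparison, where filled points have a limma adjusted p under 0.05. The intervals of Akt1, Akt2, Foxo1, Foxo3 and Cdkn1b cover 0 in every panel, and Igfbp1 has the largest differences from tph2+/+, 0.98 in tph2-/- and 1.21 in tph2+/-.

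Sod2 encodes the manganese superoxide dismutase of mitochondria, which removes superoxide, and is a known FoxO3 target (chromosome 17, 13006846 to 13040063, plus strand). It had 10.8 and 9.89 RPKM in tph2-/- and 9.01 and 10.4 in tph2+/-, against 7.87 and 7.60 in tph2+/+. All 4 libraries with a disrupted allele were above both tph2+/+ libraries. Sod2 rose in tph2-/- by 0.37 ± 0.078 on the log2 scale (interval 0.20 to 0.55, limma adjusted p = 0.0196), and the ratio of mean RPKM was 1.34. In tph2+/- the log2 difference was 0.29 ± 0.078 (0.11 to 0.47) and did not pass (adjusted p = 0.0656), and tph2-/- against tph2+/- did not pass either (0.085 ± 0.078, -0.091 to 0.26, adjusted p = 0.662). With Y-linked expression as a term the tph2-/- difference was 0.179 (limma adjusted p = 0.474), and it did not pass without tph2-/- replicate 1 (0.318, adjusted p = 0.137), tph2+/+ replicate 1 (0.397, 0.0775) or tph2+/+ replicate 2 (0.352, 0.136). The tph2+/- difference did pass without tph2+/- replicate 1 (0.382, adjusted p = 0.028). Within the Xist-high libraries, tph2+/- replicate 1 was 0.196 above the tph2+/+ mean on that scale. The fit with the Y-linked term rests on the gap within the tph2+/- pair and cannot separate sex from genotype.

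The calls among other antioxidant genes were all upwards. Of 15 tested in a list of superoxide dismutases and antioxidant enzymes, 3 rose in tph2-/- (20.0%) and 2 in tph2+/- (13.3%) against tph2+/+, beside 5.84% and 4.13% of all genes, with none lower and list medians of 0.104 and 0.101. Sod1, the cytosolic copper-zinc enzyme and 24.2 to 29.7 times as abundant as Sod2, had 260 and 264 RPKM in tph2-/- and 253 and 254 in tph2+/-, against 229 and 225 in tph2+/+. It rose in tph2-/- by 0.20 ± 0.049 (limma adjusted p = 0.033), and in tph2+/- the difference was 0.16 ± 0.049 (adjusted p = 0.1). Gpx1, a glutathione peroxidase, rose in tph2-/- by 0.51 ± 0.104 (adjusted p = 0.0234) and in tph2+/- by 0.52 ± 0.104 (adjusted p = 0.0265), and its highest value, 386 RPKM, was tph2+/- replicate 2. Prdx3, the mitochondrial peroxiredoxin, rose in tph2-/- by 0.38 ± 0.077 (adjusted p = 0.0182), and Txnrd2, the mitochondrial thioredoxin reductase, rose in tph2+/- by 0.41 ± 0.083 (adjusted p = 0.0204). Sod3, the extracellular enzyme, stayed under the filter at 0.311 to 0.752 RPKM. Erythroid cells carry high levels of several antioxidant enzymes, and 7 of 10 erythroid markers were higher in tph2-/- and 6 in tph2+/-, with summed RPKM of 7500 to 8110 in tph2-/- and 6260 to 9600 in tph2+/-, against 5370 to 5820 in tph2+/+. No erythroid marker was at 0 in any library, and the part of these cells in the Sod2 and antioxidant values was not tested.

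Igfbp1 encodes a secreted protein that binds insulin-like growth factors, is made chiefly by liver, and is a classic gene repressed by insulin through FoxO1 (chromosome 11, 7197782 to 7202546, plus strand). It had 1.46 and 1.53 RPKM in tph2-/- and 1.27 and 2.75 in tph2+/-, against 0.229 and 0.293 in tph2+/+. These values rested on 86 and 91 reads in tph2-/- and 78 and 171 in tph2+/-, against 16 and 20 in tph2+/+. All 4 libraries with a disrupted allele were far above both tph2+/+ libraries, and tph2+/- replicate 2 was the highest of the 6. Because its tph2+/+ level was under 1 RPKM, Igfbp1 passed the filter on low values through the other genotypes.

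Igfbp1 rose in tph2-/- by 0.98 ± 0.21 on the log2(RPKM + 1) scale (interval 0.50 to 1.46, limma adjusted p = 0.0257) and in tph2+/- by 1.21 ± 0.21 (0.73 to 1.69, adjusted p = 0.0136). The pseudocount shrinks a gene this low. Per depth, the read ratio to tph2+/+ was 5.73 in tph2-/- (95% exact interval 3.98 to 8.44) and 7.74 in tph2+/- (5.44 to 11.3), where the intervals cover counting error only. Between tph2-/- and tph2+/- the log2 difference was -0.23 ± 0.21 (-0.71 to 0.25, adjusted p = 0.662). The tph2-/- call ended with no filter on low values (adjusted p = 0.0514), with quantile normalization (0.664 on the log2 scale, adjusted p = 0.0715) and with Y-linked expression as a term (0.256, adjusted p = 0.485), while a pseudocount of 0.1 gave 2.15 in tph2-/- and 2.46 in tph2+/-. It also ended without either tph2-/- library (adjusted p = 0.161 without replicate 1 and 0.101 without replicate 2) or either tph2+/+ library (0.159 and 0.173), while the log2 difference in those fits stayed between 0.947 and 1.02, and at 0.983 with no filter. The tph2+/- call ended with only those 2 genotypes in the fit (adjusted p = 0.0512) and without either tph2-/- library (0.0529 and 0.052) or either tph2+/+ library (0.142 and 0.12), at log2 differences of 1.18 to 1.25. In tph2-/- against tph2+/-, Igfbp1 passed as lower without tph2+/- replicate 1 (-0.591, adjusted p = 0.0398) and with the Y-linked term (-0.596, adjusted p = 0.0475). Within the Xist-high libraries, tph2+/- replicate 1 was 0.849 above the tph2+/+ mean, and within the Xist-low libraries the tph2-/- mean was 0.591 under tph2+/- replicate 2. Here too the fits with the Y-linked term rest on the gap within the tph2+/- pair.

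Liver genes moved in the same libraries as Igfbp1. Of 15 hepatoblast markers 14 were higher and none lower in tph2-/-, and likewise 14 in tph2+/-, against tph2+/+. Of all genes, 5.84% and 4.13% were called higher. They summed to 622 to 644 RPKM in tph2-/- and 449 to 662 in tph2+/-, against 155 to 161 in tph2+/+, and no marker was at 0 in any library. Alb, the gene for serum albumin, had 77.4 and 71.6 RPKM in tph2-/- and 41.3 and 83.2 in tph2+/-, against 4.80 and 4.55 in tph2+/+. As with Igfbp1, the higher tph2+/- library was replicate 2. The part of liver tissue in the Igfbp1 values was not tested.

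**Figure D3:**
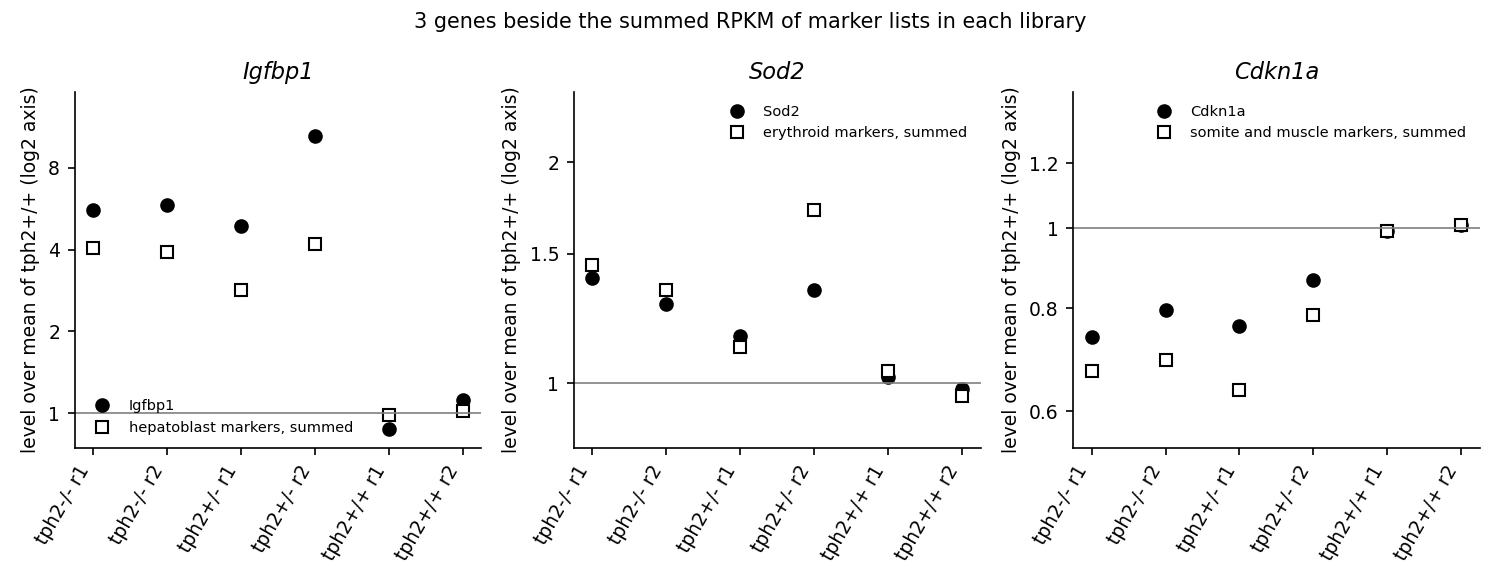
Levels of Igfbp1, Sod2 and Cdkn1a (filled circles) and summed RPKM of a marker list (open squares) in each library, divided by the mean of the tph2+/+ pair, on log2 axes. In the libraries with a disrupted allele, Igfbp1 is 4.87 to 10.5 times and the hepatoblast markers 2.84 to 4.18 times the tph2+/+ mean. Cdkn1a and somite and muscle markers are both under the tph2+/+ libraries there. The lists were paired with these genes after values were seen.

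The other IGF-binding proteins went the other way or did not pass. Of 5 tested, 2 fell (40.0%) and none rose in each of tph2-/- and tph2+/- against tph2+/+. Of all genes, 3.81% and 1.95% were called lower. Igfbp5, abundant in embryonic mesenchyme and muscle precursors, had 221 and 221 RPKM in tph2-/- and 232 and 288 in tph2+/-, against 360 and 355 in tph2+/+. It fell by 0.69 ± 0.088 in tph2-/- (limma adjusted p = 0.00222) and by 0.47 ± 0.088 in tph2+/- (adjusted p = 0.0162). Igfbp3, the main carrier of IGF in adult serum, fell by 0.43 ± 0.066 in tph2-/- (adjusted p = 0.00466) and by 0.36 ± 0.066 in tph2+/- (adjusted p = 0.0136). Igfbp2, Igfbp4 and Igfbp7 did not pass in either comparison, with adjusted p-values of 0.0645 to 0.991, and Igfbp6 was under the filter.

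Cdkn1a encodes p21, an inhibitor of cyclin-dependent kinases that p53 and FoxO factors both induce (chromosome 17, 29090976 to 29100727, plus strand). It had 15.1 and 16.2 RPKM in tph2-/- and 15.6 and 17.7 in tph2+/-, against 20.3 and 20.6 in tph2+/+. All 4 libraries with a disrupted allele were under both tph2+/+ libraries, the opposite side from Sod2 and Igfbp1. Cdkn1a fell by 0.36 ± 0.071 in tph2-/- (interval -0.52 to -0.20, limma adjusted p = 0.015), a ratio of mean RPKM of 0.767. In tph2+/- it fell by 0.28 ± 0.071 (-0.44 to -0.12) with an adjusted p of 0.0499, right at the threshold. In tph2-/- against tph2+/- the difference did not pass (-0.078 ± 0.071, -0.24 to 0.082, adjusted p = 0.658).

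With Y-linked expression as a term the Cdkn1a difference from tph2+/+ was -0.53 in tph2-/- (limma adjusted p = 0.042) and -0.367 in tph2+/- (0.0338), and within the Xist-high libraries it was -0.371 for tph2+/- replicate 1. The term rests on the gap within the tph2+/- pair (15.6 and 17.7 RPKM). The -0.53 is therefore no measure of the tph2-/- change apart from sex. The tph2-/- call ended without tph2-/- replicate 1 (-0.313, adjusted p = 0.111), tph2+/+ replicate 1 (-0.373, 0.0743) or tph2+/+ replicate 2 (-0.352, 0.108). The tph2+/- call held in 4 of 9 changes of processing, whose adjusted p ran from 0.0232 to 0.104, and in 1 of 6 fits without 1 library, where only the fit without tph2+/- replicate 2 kept it and the others gave up to 0.245. Differentiating skeletal muscle is known to express Cdkn1a. Of 9 somite and muscle markers 8 were lower in tph2-/- and 6 in tph2+/-, beside 3.81% and 1.95% of all genes. They summed to 210 to 217 RPKM in tph2-/- and 200 to 245 in tph2+/-, against 311 to 315 in tph2+/+, none was at 0 in any library, and their part in the Cdkn1a values was not tested. An annotated gene on the opposite strand, AC167363.2, overlaps Cdkn1a exons, and the counts may likewise hold both.

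Cdkn1b encodes p27, a related inhibitor that FoxO factors induce and that AKT phosphorylates in human cells (chromosome 6, 134920401 to 134925513, plus strand). It had 18.0 and 17.7 RPKM in tph2-/- and 16.8 and 19.0 in tph2+/-, against 18.8 and 19.1 in tph2+/+. The tph2-/- pair lay just under the tph2+/+ pair, and of the tph2+/- pair one library was the lowest of the 6 and the other lay within the tph2+/+ range. Its log2 difference from tph2+/+ was -0.083 ± 0.067 in tph2-/- (-0.23 to 0.068, limma adjusted p = 0.453) and -0.081 ± 0.067 in tph2+/- (-0.23 to 0.070, adjusted p = 0.576). With the Y-linked term the differences were -0.255 in tph2-/- (adjusted p = 0.24) and -0.166 in tph2+/- (0.253). Per length, Cdkn1a stood above Cdkn1b in both tph2+/+ libraries, with a Cdkn1a to Cdkn1b ratio of 1.08 and 1.07, and below it in the other 4, at 0.841 and 0.917 in tph2-/- and 0.928 and 0.930 in tph2+/-. The implied lengths were 2026 bases for Cdkn1a and 2405 for Cdkn1b, against 3553 and 4552 annotated. Which gene stands above therefore depends on the gene models, while the lower ratio outside tph2+/+ does not. Cdkn1c, an imprinted gene of the same inhibitor family, was far more abundant at 545 to 637 RPKM and did not pass in tph2-/- (-0.073 ± 0.075, limma adjusted p = 0.557).

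Other genes of the pathway were taken from 12 lists of 178 genes, of which 158 were tested. In tph2-/- against tph2+/+, 14 rose (8.86%) and 7 fell (4.43%), beside 5.84% and 3.81% of all genes. In tph2+/- against tph2+/+, 9 rose (5.70%) and 4 fell (2.53%), beside 4.13% and 1.95% of all genes.

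Upstream of AKT, calls were scattered. Of the ligands and receptors, 7.14% were higher and 14.3% lower in tph2-/-, and 7.14% each way in tph2+/-, against tph2+/+. Of the PI3K and mTORC2 genes, 6.67% were higher and none lower in tph2-/-. The shares of all genes were 5.84% higher and 3.81% lower in tph2-/-, and 4.13% and 1.95% in tph2+/-. Of 14 ligands and receptors, Kit, the stem cell factor receptor, rose in tph2-/- (0.37 ± 0.064, limma adjusted p = 0.00806) and tph2+/- (0.26 ± 0.064, adjusted p = 0.045). Kit is also one of the blood markers counted above, which summed to 57.8 and 58.0 RPKM in tph2-/- and 53.4 and 63.4 in tph2+/-, against 32.0 and 33.0 in tph2+/+. Their part in the Kit values was not tested. Igf2, the main fetal growth factor of the family, fell in tph2-/- to 709 and 754 RPKM, against 907 and 902 in tph2+/+ (-0.31 ± 0.061, adjusted p = 0.0157), and Pdgfrb, a receptor of mesenchyme and pericytes, fell by 0.40 ± 0.055 (adjusted p = 0.00268). Igf1 fell in tph2+/- (-0.40 ± 0.082, adjusted p = 0.0229). Of 15 PI3K and mTORC2 genes, Pik3cb, a catalytic subunit of PI3K, rose in tph2-/- (0.38 ± 0.098, adjusted p = 0.0443) and none passed in tph2+/-.

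Of 12 brakes on the pathway, Trib2 fell in tph2-/- (-0.27 ± 0.072, limma adjusted p = 0.0475) and Trib3, a stress-induced pseudokinase that binds AKT, rose in tph2+/- (0.68 ± 0.144, adjusted p = 0.026). Trib2 and Trib3 were each 8.33% of the brakes tested, beside 3.81% of all genes called lower in tph2-/- and 4.13% called higher in tph2+/-. Trib3 averaged 0.908 RPKM in tph2+/+ and passed the filter on low values through the other genotypes. None of the 4 tested AKT-related kinases passed against tph2+/+, and of 11 other AKT substrates Tbc1d4 fell in tph2+/- (-0.42 ± 0.085, adjusted p = 0.0198). Tbc1d4 was 9.09% of those substrates, beside 1.95% of all genes called lower in tph2+/-. Of 21 FoxO family members and regulators, Sfn, a 14-3-3 protein of epithelia, fell in tph2-/- by 0.56 ± 0.064 (adjusted p = 0.00109), with 7.77 and 8.01 RPKM against 12.5 and 11.7 in tph2+/+. Sfn also fell in tph2-/- against tph2+/- (-0.50 ± 0.064, adjusted p = 0.0052), the one pathway gene called between those genotypes. It was 0.633% of the tested pathway genes, beside 0.544% of all genes called lower there. The acetyltransferase gene Kat2b rose in tph2-/- (0.33 ± 0.085, adjusted p = 0.0454). Of the FoxO family members and regulators, 4.76% were higher and 4.76% lower in tph2-/- against tph2+/+, beside 5.84% and 3.81% of all genes.

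Among 33 other genes known as FoxO targets, 5 rose and none fell in tph2-/- (15.2%), and 3 rose and none fell in tph2+/- (9.09%), against tph2+/+, beside 5.84% and 4.13% of all genes called higher. The list median was 0.066 in tph2-/- and 0.105 in tph2+/-, beside 0.030 and 0.024 over all tested genes. In tph2-/- the 5 were Sepp1, a selenoprotein secreted by liver (0.59 ± 0.138, limma adjusted p = 0.0476), Cited2 (0.38 ± 0.076, 0.0167), Prdx3, the mitophagy gene Bnip3 (0.37 ± 0.074, 0.0156) and the BH3-only death gene Bbc3 (0.31 ± 0.076, 0.0362). In tph2+/- they were Cited2, a transcriptional coregulator (0.39 ± 0.076, 0.0185), Bnip3 (0.30 ± 0.074, 0.0493) and Ccnd1, which FoxO factors are known to repress (0.24 ± 0.052, 0.0261). Sod2, Igfbp1 and Cdkn1a are not in these counts. In the same libraries 14 of 15 hepatoblast and 7 of 10 erythroid markers were higher in tph2-/-, and 14 and 6 in tph2+/-, with the summed levels given above, and their part in the FoxO target calls was not tested.

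**Figure D4:**
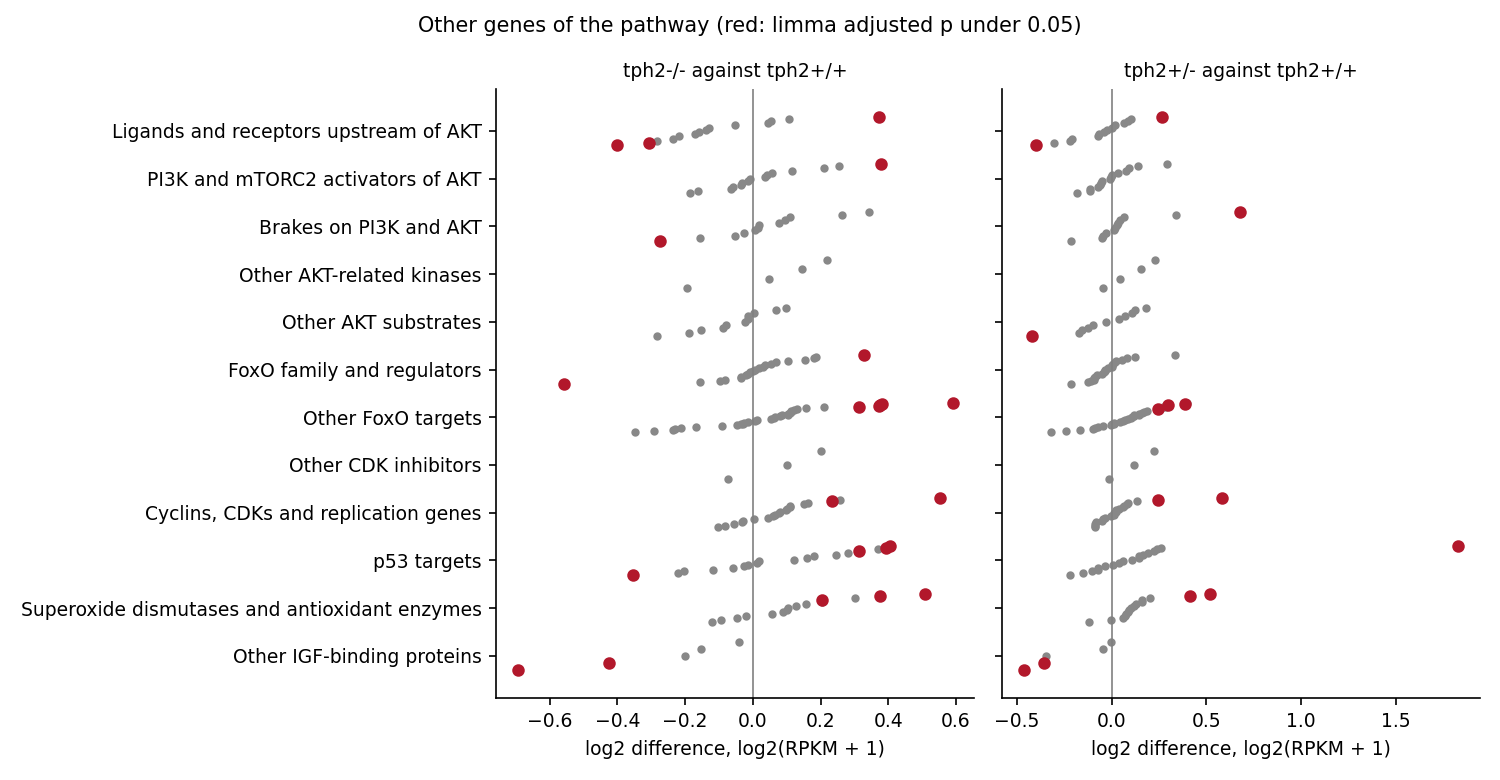
Log2 differences from tph2+/+ on the log2(RPKM + 1) scale (horizontal axis) of the tested genes in 12 pathway lists, each point a gene, with genes of limma adjusted p under 0.05 in red. In tph2-/- the red points of the FoxO target list lie on the higher side and those of the IGF-binding proteins on the lower side.

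Calls among cell cycle genes and p53 targets other than Cdkn1a were mostly upwards. Of 20 cyclins, CDKs and replication genes, 2 rose in tph2-/- (Cdk6 and Mki67) and 2 in tph2+/- (Cdk6 and Ccnd1), and none fell. These counts stand beside 5.84% and 4.13% of all genes called higher, and 3.81% and 1.95% called lower. Calls over all genes leaned upwards too, at 751 higher and 490 lower in tph2-/- and 531 and 251 in tph2+/-. After median-of-ratios scaling they were 620 and 640 in tph2-/- and 455 and 325 in tph2+/-. Cdk6, a kinase of the step from G1 to S phase, had 3.71 and 4.68 RPKM in tph2-/- and 3.95 and 4.63 in tph2+/-, against 2.57 and 2.48 in tph2+/+ (0.55 ± 0.107, limma adjusted p = 0.0144, in tph2-/-). Mki67, a marker of dividing cells, rose in tph2-/- by 0.235 ± 0.059 (adjusted p = 0.0407). Of 18 other p53 targets, Plk3 (0.40 ± 0.092, limma adjusted p = 0.0273), Btg2 (0.39 ± 0.084, 0.0223) and Bbc3 rose and Plk2 fell (-0.35 ± 0.058, 0.00652) in tph2-/-, with a list median of 0.070, and Pmaip1 was called higher in tph2+/- (1.83 ± 0.299, adjusted p = 0.026). Of these p53 targets 16.7% were higher and 5.56% lower in tph2-/-, beside 5.84% and 3.81% of all genes. In tph2+/- 5.56% were higher and none lower, beside 4.13% and 1.95%. Pmaip1 averaged under 1 RPKM in tph2-/- and tph2+/+ and passed the filter on low values through tph2+/- alone.

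The genes whose profile was most like that of each changed gene were sought by Pearson's r of log2(RPKM + 1) over the 6 libraries among 11333 other protein-coding genes. Closest to Igfbp1 were Rgcc (r = 0.996), Kcnj8 (0.994) and Tbc1d24 (0.991), each highest in tph2+/- replicate 2. Closest to Sod2 were Aftph (r = 0.9997) and Mospd1 (0.999). Closest to Cdkn1a were Alpk3, a kinase gene of striated muscle (r = 0.997), Igf2 (0.996) and Phf13 (0.993). With 6 points such values are common, and an r of 0.95 was exceeded by 193 genes with Igfbp1, by 244 with Sod2 and by 154 with Cdkn1a. All share the same libraries, and the values are given as a description.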

How the data were processed

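AGM regions of C57BL/6 embryos at E11.5 gave 6 libraries, each from a TruSeq RNA kit with paired reads of 150 bp, per the labels' protocols. That kit keeps no strand information. The authors deposited RPKM values in 1 table. TopHat2 2.0.9, HTSeq 0.5.3p9 and GRCm38 are named in the submitters' processing notes, and the gene models used are not stated there. Nothing says that libraries of a genotype came from separate embryos, so p-values reflect the spread between these libraries alone.

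Of 56826 rows, 33353 with cDNA clone identifiers and 27 dates were left out. The 12869 genes averaging 1 RPKM or more entered limma 3.58.1 in R 4.3.3 as log2(RPKM + 1), all 3 genotypes in 1 fit, with eBayes (trend and robust), tested on simulated data. The spread is thus shared by all genotypes, and the scale understates changes of low genes. Of the value columns, 0 went unused. Whole reads were recovered from the RPKM steps (within 0.02 of a read for the 9 genes), and totals from gene lengths in GENCODE M21, which also gave coordinates. Read intervals are exact (Clopper-Pearson) at 95%. The alternatives tried are given in the closing section.

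The genes and lists were chosen with earlier results of these data known. The genes named are the 9, the called genes of each list (up to 4 higher and 4 lower by size, against tph2+/+), the rest of their families and the 3 most similar profiles. A few genes that this rule names are not reported here. Replicate numbers were not taken to pair libraries.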

Additional observations from a re-analysis of the deposited data

How the results depend on the processing

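The 27 differences were refitted under 15 alternatives, 6 of which left out 1 library. Most of the differences had not been called, and only the called ones, of Sod2, Igfbp1 and Cdkn1a, could lose a call. Of 405 refits 350 kept direction and call, 29 lost a call, 3 gained one and 23 changed sign. With Y-linked expression as a term, 421 genes and 1 of the 9 passed in tph2-/- against tph2+/+, 263 genes and 1 of the 9 (Igfbp1) in tph2-/- against tph2+/-, Foxo3 was -0.0525 in tph2+/- against tph2+/+ and Sod2 -0.0136 in tph2-/- against tph2+/-. In tph2+/- against tph2+/+, 1 of the 9 passed at a pseudocount of 0.1, with no filter, without the trend and robust options and with clone rows kept, and 0 with only those 2 genotypes in the fit. Quantile normalization gave Cdkn1b 0.00703 in tph2-/- against tph2+/-. The Y-linked term rests on the gap within the tph2+/- pair and cannot separate sex from genotype. The cause of these shifts was not tested.

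Without 1 library, 383 to 1530 genes and 0 to 3 of the 9 passed in tph2-/- against tph2+/+, 325 to 805 and 0 to 2 in tph2+/- against tph2+/+, and 57 to 288 and 0 to 1 in tph2-/- against tph2+/-; such fits hold fewer samples. The cause was not tested. None of the 9 passed in tph2-/- against tph2+/+ without tph2-/- replicate 1 or either tph2+/+ library, and none in tph2+/- against tph2+/+ without either tph2-/- or either tph2+/+ library. Differences that changed sign ran from -0.211 to 0.0428 for Akt1 and -0.0922 to 0.0525 for Foxo3 in tph2-/- against tph2+/+. In tph2+/- against tph2+/+ they ran from -0.0388 to 0.106 for Akt1, -0.0552 to 0.0333 for Akt2, -0.145 to 0.0625 for Foxo1, -0.0582 to 0.148 for Foxo3 and -0.166 to 0.00436 for Cdkn1b. In tph2-/- against tph2+/- they ran from -0.245 to 0.00916 for Akt1, -0.147 to 0.0604 for Foxo1, -0.168 to 0.0383 for Foxo3, -0.00777 to 0.178 for Sod2, -0.591 to 0.134 for Igfbp1, -0.165 to 0.00825 for Cdkn1a and -0.0868 to 0.0833 for Cdkn1b.

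The labels do not say whether libraries with the same replicate number share anything else. Same-numbered deviations correlated across genes at 0.17, 0.033 and 0.0727. With the replicate block, 1649, 908 and 220 genes and 3, 2 and 0 of the 9 passed, in the order tph2-/- to tph2+/+, tph2+/- to tph2+/+, tph2-/- to tph2+/-. Without the block, 1241, 782 and 166 genes passed in that order. With 2 libraries a genotype, differences of the kinases and FoxO factors smaller than their intervals could not be seen.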

Other observations

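Beside the 9 genes, 2 stress genes of the pathway lists were highest in the tph2+/- libraries. They are given as a description, and the share of all genes with that pattern was not counted. Pmaip1, a BH3-only death gene that p53 induces, had 0.554 and 0.768 RPKM in tph2-/- and 5.34 and 2.30 in tph2+/-, against 0.295 and 0.269 in tph2+/+. These values rested on 57 and 80 reads in tph2-/- and 572 and 249 in tph2+/-, against 36 and 32 in tph2+/+. The tph2+/- pair stood apart from the other 4 libraries, but the log2 difference of tph2-/- from tph2+/- was -1.46 ± 0.299 with a limma adjusted p of 0.125. Pmaip1 averaged under 1 RPKM in tph2-/- and tph2+/+ and entered the test through tph2+/- alone, where it was high.

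Trib3 had 1.30 and 1.28 RPKM in tph2-/- and 1.59 and 2.59 in tph2+/-, against 0.869 and 0.946 in tph2+/+. With its tph2+/+ level under 1 RPKM, it passed the filter on low values through the other genotypes. The tph2-/- libraries lay between the others, and the difference of tph2-/- from tph2+/- did not pass (-0.42 ± 0.144, limma adjusted p = 0.263).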
